A study of Caenorhabditis elegans with 6 samples.

Results

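The warthog genes wrt-1 to wrt-10 are a nematode family of secreted proteins related to the Hedgehog ligands of other animals. Their members were taken by gene symbol, as the probe sets that the platform annotation assigns to a single wrt gene. These are 11 of the 22548 probe sets compared on the Affymetrix C. elegans array, and they cover all 10 genes of the family, with 2 probe sets for wrt-9 and 1 for each other gene. No probe set names a wrt gene together with another gene. The gene wrt-4 is among those that the study itself named as changed on these arrays, so its value here is not independent evidence of that change.

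Whole larvae of 2 strains were compared on 3 arrays each. hs::ΔNTbar-1 animals carry the array huIs7, in which a heat shock promoter drives a Myc-tagged beta-catenin BAR-1 that lacks its amino terminus, with mec-7::GFP and dpy-20(+) as markers. hs::control animals carry the array deIs14, with the empty heat shock vector and the same markers, made in dpy-20 mutants. By the methods, both strains were grown as synchronized larvae to the L2/L3 molt. They were given a single heat shock of 30 min, at 30° by the labels and at a higher temperature by the methods. RNA of whole worms was taken after a short recovery. Neither strain was measured without heat shock, and each is a single integrated line, so other differences between the strains cannot be told apart from a response to the transgene. In whole worms, fewer cells of a type and less RNA per cell cannot be told apart either.

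A warthog protein has a signal peptide and an amino-terminal Wart domain found in nematodes. Some members also have at their carboxy terminus the Hint domain, the part that in fly and vertebrate Hedgehog cuts the precursor and attaches cholesterol to the signal. C. elegans has many such proteins and many relatives of the receptor Patched, but neither a typical Hedgehog nor Smoothened. The hedgehog-related genes are known mostly from hypodermis, seam cells and the glia of sense organs, and several are needed for molting and for an intact cuticle. Many of their transcripts rise and fall once in each larval stage, so their level in a larva depends on its place in the molting cycle.

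A primer pair that the study lists for quantitative PCR of wrt-4 (ZK678.5) is shown because wrt-4 had the highest log2 fold change of the 11 probe sets. wrt-4 is not among the genes that the study followed further after its quantitative PCR. Other genes also rose in that assay, and the study's main text does not name them. The outcome of the assay for wrt-4 is therefore not known from that text. Both primers are given from 5′ to 3′ in lower case, with no part marked by capitals.
wrt-4 forward primer: caaaacactttcttcactaatgttctc
wrt-4 reverse primer: cgttaagaccgtaaccaatgttatc
Where these primers lie relative to the probes of the array was not tested.

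The deposited values are linear, and every array has the same trimmed mean, 500.2. They were therefore read as MAS 5 signals, a measure of hybridization to each probe set. The median signal was 134 to 145 on the hs::ΔNTbar-1 arrays and 131 to 143 on the hs::control arrays. bar-1, the gene on the transgene, had a signal of 7754.9 to 20991.2 on the hs::ΔNTbar-1 arrays and of 519.5 to 586.3 on the hs::control arrays, which fits the strain labels. Signals of different probe sets are not set against each other here, because probes differ in how well they hybridize. For the test, each signal was turned into log2(signal + 16), and all probe sets were fitted together with limma and adjusted by the Benjamini-Hochberg method. With 3 arrays against 3, an exact permutation test cannot give a p below 0.1.

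wrt-6 rose in hs::ΔNTbar-1 animals, and no other warthog probe set passed the test. This is 1 of 11, where 0.408% of all probe sets were called higher and 0.266% were called lower. At 5 of the 11 probe sets the lowest hs::ΔNTbar-1 array exceeded the highest hs::control array, namely at those of wrt-2, wrt-3, wrt-4, wrt-6 and wrt-9 (182172_at). Over all probe sets 10.7% did so, and for 10.1% the groups were apart in the lower direction, which no warthog probe set was. Without adjustment, 6 of the 11 had a limma p under 0.05, all of them higher, where 7.08% of all probe sets were higher and 6.40% lower. A positive log2 fold change was found at 10 of 11 probe sets (50.6% of all probe sets), at 9 with quantile normalization, which turned wrt-7, and at 8 with each array centred on its median, which turned wrt-5 and wrt-7. Its median was 0.41, against 0.0035 over all probe sets.

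**Figure D1:**
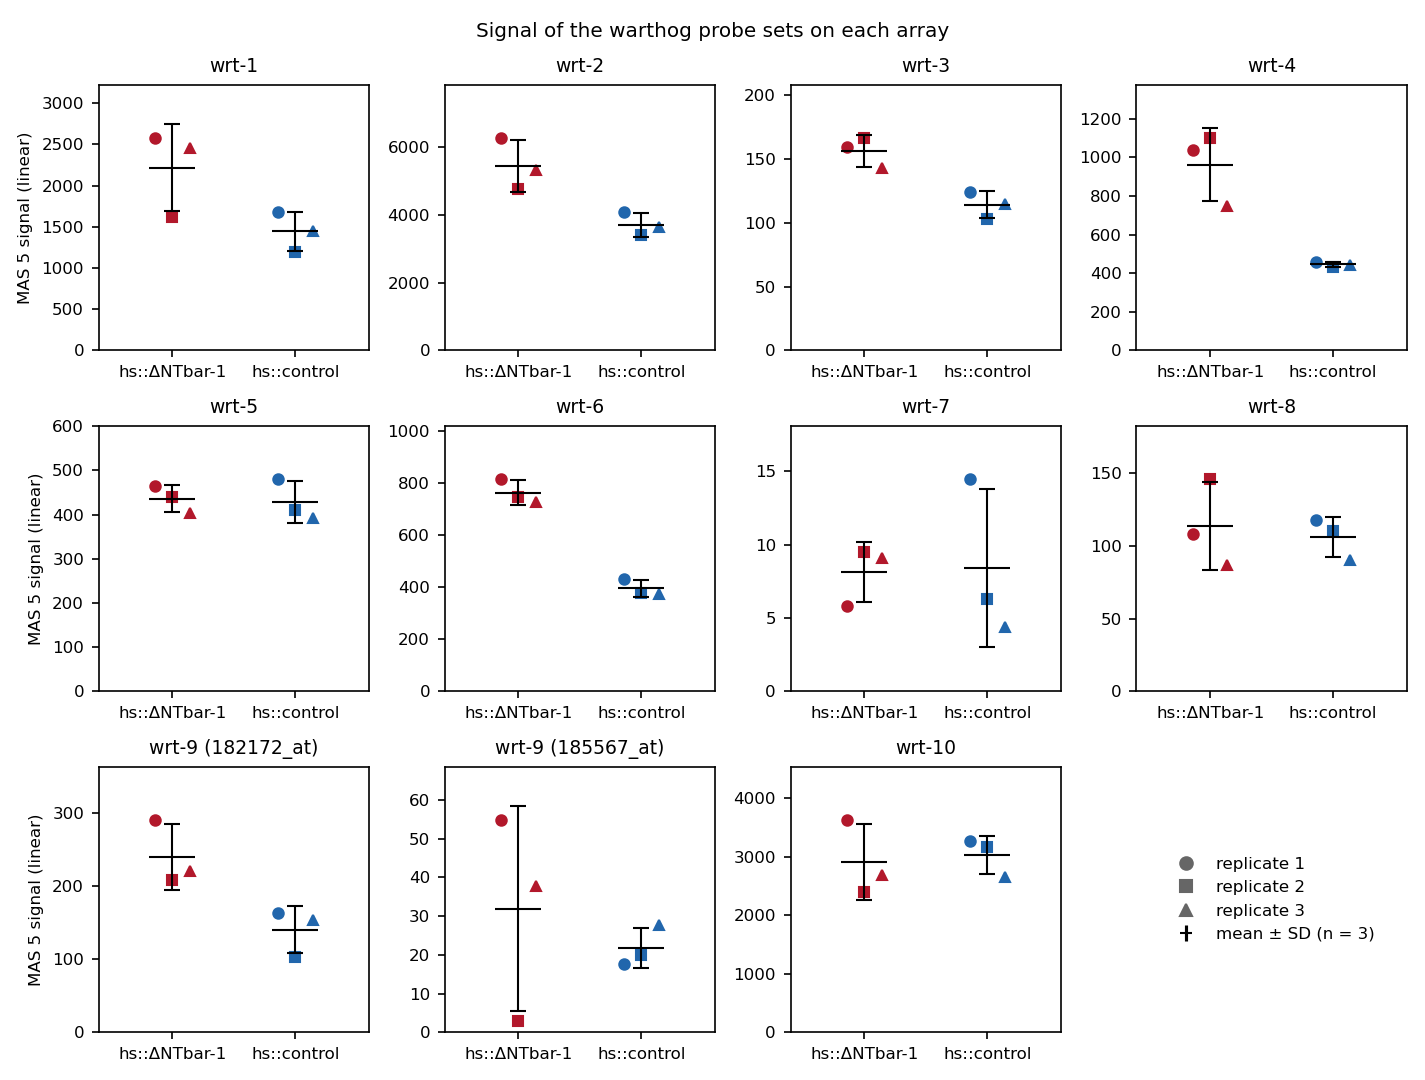
Linear MAS 5 signal (y axis, starting at 0, on its own scale in each panel) of every warthog probe set on the 3 hs::ΔNTbar-1 arrays (left, red) and the 3 hs::control arrays (right, blue). Symbols mark the replicate number, horizontal bars the mean and whiskers the SD (n = 3); the groups are apart for wrt-2, wrt-3, wrt-4, wrt-6 and 1 of the 2 probe sets of wrt-9.

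wrt-6 (ZK377.1, probe set 188037_at) is a member with a Hint domain. Its signal was 817.1, 744.9 and 728.2 in hs::ΔNTbar-1 animals, against 432.8, 379.1 and 375.6 in hs::control animals. The lowest hs::ΔNTbar-1 array was 1.68 times the highest hs::control array. The mean of hs::ΔNTbar-1 was 763 ± 47.2, against 396 ± 32.1 for hs::control (SD, n = 3 arrays each). This was a log2 fold change of 0.92 (standard error 0.12, 95% interval 0.64 to 1.20 before any adjustment, as for all intervals here, adjusted p = 0.0332 from limma), or 1.89-fold. On this scale that is under the 2-fold change that the study's criteria ask for. By p, wrt-6 stood 108th among all probe sets.

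The call of wrt-6 did not hold in every setting. Leaving out any 1 of the 6 arrays ended it, with an adjusted p from 0.0838 (without hs::control replicate 1) to 0.142 (without hs::ΔNTbar-1 replicate 1), while the log2 fold change stayed between 0.87 and 0.98. Centring each array on its median (0.0639) and a pseudocount of 1 (0.0608) also ended it. Over all 14 alternatives with a test the adjusted p ranged from 0.00151 to 0.156, and it was under 0.05 in 5 of them.

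wrt-4 (ZK678.5, probe set 190340_s_at) also has both a Wart and a Hint domain, and it had the highest log2 fold change of the family but a wider spread. Its signal was 1038.6, 1102.5 and 749 in hs::ΔNTbar-1 animals, against 456, 434.9 and 445.1 in hs::control animals. The control arrays were nearly level, at 445 ± 10.6, while the hs::ΔNTbar-1 arrays had a mean of 963 ± 188 (SD, n = 3 arrays each), with replicate 3 the lowest. That array was still 1.64 times the highest hs::control array. On the log2 scale the difference was 1.07 (standard error 0.17, 95% interval 0.66 to 1.47), or 2.10-fold, and the adjusted p from limma was 0.0618, so wrt-4 did not pass.

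By p, wrt-4 stood 207th among all probe sets, and 0.674% of them were called. Its adjusted p fell under 0.05 in 3 of 13 alternatives, namely without the dim probe sets (0.00953), with a pseudocount of 64 (0.0199) and under a trended, robust variance model (0.00292). Leaving out any 1 array left it over 0.05, at 0.0573 without hs::ΔNTbar-1 replicate 3, the array with the lowest of the 3 values, and at 0.162 to 0.200 without any other, while the log2 fold change ranged from 0.96 (without hs::ΔNTbar-1 replicate 2) to 1.24 (without hs::ΔNTbar-1 replicate 3). The study's criteria ask for a 2-fold or greater difference in means, for a small unadjusted p in the methods' analysis of variance (at or under 0.05), and for 2 or more hs::ΔNTbar-1 arrays that deviate from the control in that direction. By them, wrt-4 was the only warthog probe set counted as higher, where 0.705% of all probe sets were. On this scale, wrt-6 missed them on its size alone, since its p in that test was smaller, at 0.000336 against 0.00339 for wrt-4.

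**Figure D2:**
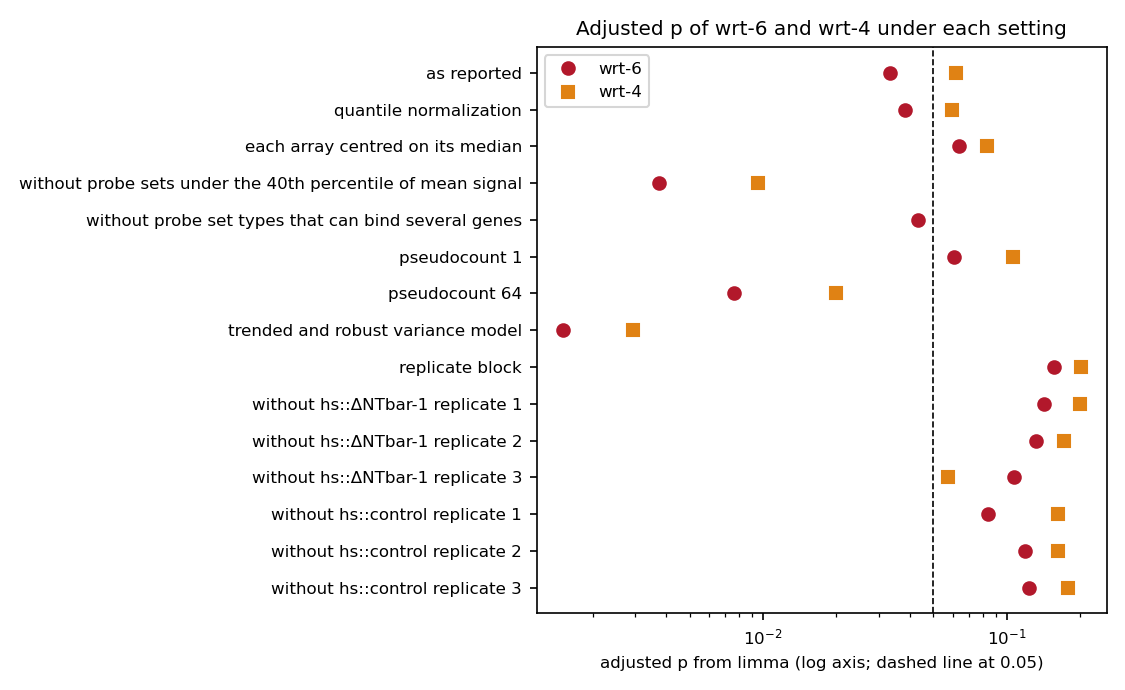
Adjusted p from limma (x axis, log scale) of wrt-6 (red circles) and wrt-4 (orange squares) as reported and under each alternative (y axis), with a dashed line at 0.05. Both lay left of the line without dim probe sets, at a pseudocount of 64 and under the trended, robust variance model, and both lay right of it without any single array; wrt-4 has no value in the setting that leaves out probe set types able to bind several genes, since its own is of such a type.

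The other members with a Hint domain are wrt-1, wrt-7 and wrt-8, and none of them passed. wrt-1 (ZK1290.12, probe set 191180_at) had a signal of 2581.8, 1614.5 and 2456.4 in hs::ΔNTbar-1 animals, against 1680.1, 1200.3 and 1453.1 in hs::control animals. Replicate 2 of hs::ΔNTbar-1 lay within the control range, and the other 2 arrays lay above it. In limma the log2 fold change was 0.60 (standard error 0.22, 95% interval 0.05 to 1.14, adjusted p = 0.328). Without that replicate it was 0.81, the highest value of any alternative, and still not called.

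wrt-7 (ZK1037.10, probe set 188873_at) had a very dim signal, of 5.8, 9.5 and 9.1 in hs::ΔNTbar-1 animals, against 14.5, 6.3 and 4.4 in hs::control animals. The groups overlap throughout, and only 6.94% of probe sets have a mean signal as low as this. The deposited table gives no detection calls, so whether wrt-7 was detected at all is not known from it. Its log2 fold change of 0.0027 (95% interval -0.43 to 0.44) therefore says little about the transcript.

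wrt-8 (C29F3.2, probe set 190306_s_at) had a signal of 108.2, 146.3 and 86.8 in hs::ΔNTbar-1 animals, against 117.6, 110.6 and 90.6 in hs::control animals. The hs::ΔNTbar-1 arrays enclose the control range on both sides. The log2 fold change was 0.07 (95% interval -0.41 to 0.54, adjusted p = 0.920 from limma), which leaves room for a change of up to 1.46-fold upward or, in the other direction, to 0.754 of the control level.

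Of the members that have the Wart domain without a Hint domain, 3 had a probe set with groups apart in the higher direction, without passing the test. These were wrt-2, wrt-3 and, on 1 of its 2 probe sets (182172_at), wrt-9. wrt-2 (F52E4.6, probe set 188061_s_at), whose promoter is widely used to mark seam cells, had a signal of 6266.6, 4742.9 and 5302.7 in hs::ΔNTbar-1 animals, against 4089, 3391.4 and 3628 in hs::control animals. The lowest hs::ΔNTbar-1 array was 1.16 times the highest hs::control array. wrt-2 was thus at a log2 fold change of 0.55 (standard error 0.15, 95% interval 0.19 to 0.90, adjusted p = 0.198 from limma), or 1.46-fold. Its adjusted p was under 0.05 only under the trended, robust variance model, at 0.0257, among 13 alternatives.

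wrt-3 (F38E11.7, probe set 193473_s_at) had a signal of 159.6, 166.7 and 142.8 in hs::ΔNTbar-1 animals, against 124.4, 103.2 and 115.1 in hs::control animals. The spread within each group was small, at 12.3 for hs::ΔNTbar-1 and 10.6 for hs::control (SD, n = 3 arrays each), and so was the difference. Its log2 fold change was 0.41 (standard error 0.12, 95% interval 0.11 to 0.70, adjusted p = 0.232 from limma), or 1.32-fold.

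The 2 probe sets of wrt-9 (B0344.2) gave different values, one bright enough to pass the filter on dim probe sets and one not. On 182172_at the signal was 291, 208 and 220.3 in hs::ΔNTbar-1 animals, against 163.8, 103.7 and 154.2 in hs::control animals, so the groups are apart. The log2 fold change there was 0.72 (standard error 0.21, 95% interval 0.21 to 1.22, adjusted p = 0.224 from limma). On 185567_at the signal was 54.9, 3 and 37.8 in hs::ΔNTbar-1 animals, against 17.6, 20.1 and 27.6 in hs::control animals. Replicate 2 of hs::ΔNTbar-1 is the lowest of all 6 arrays there and replicate 1 the highest. The log2 fold change was 0.15 with a 95% interval of -1.01 to 1.31, which includes the value of the first probe set, and it turned to -0.12 with a pseudocount of 1. Both probe sets leave wrt-9 without a call.

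wrt-5 and wrt-10 are the other members without a Hint domain, and neither showed a difference beyond the spread of the arrays. wrt-5 (W03D2.5, probe set 188096_s_at), which is needed for normal hypodermal development, had a signal of 464.5, 439.7 and 403.8 in hs::ΔNTbar-1 animals, against 481.1, 410.7 and 392.3 in hs::control animals. The hs::ΔNTbar-1 values all lie within the control range. Its log2 fold change was 0.03 (standard error 0.13, 95% interval -0.28 to 0.33, adjusted p = 0.948 from limma), so the interval reaches 1.26-fold upward and, downward, 0.825 of the control level.

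wrt-10 (ZK1290.8, probe set 184676_s_at) had a signal of 3630.2, 2389.9 and 2686.6 in hs::ΔNTbar-1 animals, against 3268.1, 3165.7 and 2654.8 in hs::control animals. One hs::ΔNTbar-1 array lay above and 1 below the control range. The log2 fold change was -0.08 (standard error 0.19, 95% interval -0.53 to 0.37, adjusted p = 0.899 from limma), and it was 0.05 without hs::ΔNTbar-1 replicate 2.

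**Figure D3:**
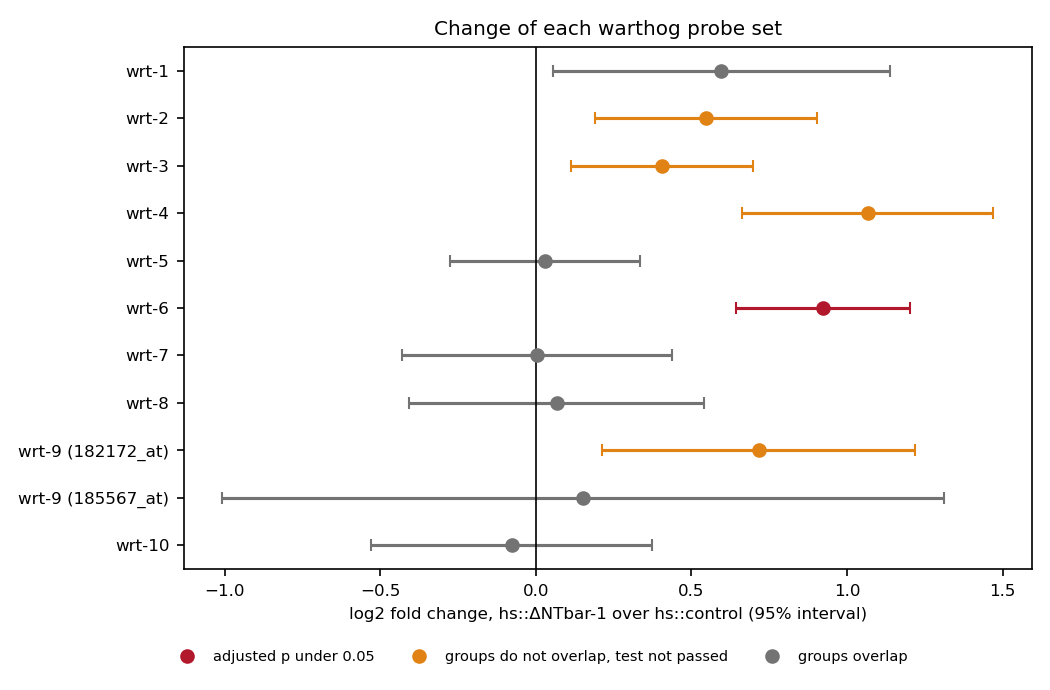
Log2 fold change of each warthog probe set (rows), hs::ΔNTbar-1 over hs::control on the log2(signal + 16) scale, with its 95% interval from limma, not adjusted for the number of probe sets. Red marks an adjusted p under 0.05 (wrt-6), orange groups that do not overlap without passing (wrt-2, wrt-3, wrt-4 and 1 probe set of wrt-9), and grey groups that overlap; the interval of the dim wrt-9 probe set is the widest of the 11.

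The 5 genes with a Hint domain had log2 fold changes of 0.0027 to 1.07 (median 0.60) and the 6 probe sets of the 5 genes without one had values of -0.08 to 0.72 (median 0.28). Groups that did not overlap occurred in both, at 2 of 5 and 3 of 6 probe sets. The difference between the kinds of protein was not tested.

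Within each group, the same array was often the highest of the 3 for this family. Replicate 1 of hs::control was the highest of its group at 10 of the 11 warthog probe sets, the exception being 185567_at of wrt-9, while over all probe sets it was the highest at 26.9%. Replicate 1 of hs::ΔNTbar-1 was the highest of its group at 7 of 11, against 28.7% over all probe sets. Replicate 3 of hs::ΔNTbar-1 was the highest at none and replicate 3 of hs::control at 1, against 38.4% and 38.7%. The part of these differences between arrays in the comparison of the groups was not tested. Without hs::ΔNTbar-1 replicate 1 the log2 fold change of wrt-6 was 0.87 and that of wrt-4 was 1.004, and without hs::control replicate 1 they were 0.98 and 1.08.

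In the gene order of the RefSeq annotation of assembly WBcel235, wrt-1 and wrt-10 are neighbours with no protein-coding gene between them. wrt-1 was at 0.60 and wrt-10 at -0.08 on the log2 scale, and neither was called. Of the protein-coding genes on either side of the 10 members, wrt-1 and wrt-10 counted for each other, 15 were measured and none passed limma's test. Of all genes, 0.444% were called higher and 0.286% lower, so this count says little about the neighbours.

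Other hedgehog-related genes spread to both sides. Of the 44 groundhog, ground-like, hog and quahog genes measured, each through its brightest probe set on average, 1 passed the test as higher and none as lower, where 0.444% and 0.286% of 17118 genes did. hog-1, which encodes a Hint domain protein, was the gene that passed, and it is also among the genes that the study named on these arrays. Its signal was 750.6, 797.7 and 758.9 in hs::ΔNTbar-1 animals, against 371.6, 313.6 and 304.7 in hs::control animals, which gave a log2 fold change of 1.19 with a standard error of 0.12 (limma, adjusted p = 0.0150). The call was lost whichever of the 6 arrays was left out (adjusted p = 0.0520 to 0.0860).

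The groups did not overlap at 13 of these 44 genes in the higher direction and at 5 in the lower, where 11% and 10.5% of all genes did so. Of the 44, 28 had a log2 fold change above 0 (50.1% of all genes), and the median was 0.14, against 0.48 for the 10 warthog genes and 0.00073 over all genes. The ground-like gene grl-10 was at 0.97 (adjusted p = 0.0603 from limma), close to wrt-4 in size and p. grl-21 had the lowest value of the list, with a signal of 328, 813.5 and 553.4 in hs::ΔNTbar-1 animals, against 2297.8, 1266.3 and 2409.9 in hs::control animals. Its difference was -1.82 on the log2 scale, with a standard error of 0.39 (limma, adjusted p = 0.132). The warthog genes thus had no member as far below 0 as grl-21, but the difference between the lists was not tested.

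The 29 Patched and Dispatched-related genes measured encode sterol-sensing membrane proteins. None passed at an adjusted p under 0.05 in limma, where 0.444% of all genes were called higher and 0.286% lower. At an unadjusted p under 0.05, 10 were higher and 2 lower, where 7.24% of all genes were higher and 6.68% lower. The groups did not overlap at 11 in the higher direction, where 11% of all genes did so, and at 3 in the lower, which is near the 10.5% of all genes, and the median log2 fold change was 0.12. ptr-19 had the highest value, 1.36 (adjusted p = 0.139 from limma), on dim signals of 64.9 to 103.7 in hs::ΔNTbar-1, against 8.2 to 33.1 in hs::control animals. ptr-22 had the lowest, -0.59 (adjusted p = 0.232).

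Of 4 other genes tied to hedgehog-related signalling, 3 were measured and none passed limma's test, with 1 higher at an unadjusted p under 0.05. Of all genes, 0.444% were called higher and 0.286% lower, and 7.24% and 6.68% were so without adjustment. Counts over 3 genes therefore say little about this list. lrp-1, a megalin-like receptor needed for molting, was at 0.41 on the log2 scale (adjusted p = 0.219), and another of its probe sets gave 0.08. tra-1, the worm's Gli-type transcription factor, which acts in sex determination, was at -0.16 (adjusted p = 0.739), with values of 0.07 to 0.24 on its other probe sets.

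Molt cycle genes were looked at because warthog transcripts cycle with the molts. None of 21 passed limma's test, where 0.444% of all genes were called higher and 0.286% lower. At an unadjusted p under 0.05, 5 were higher and 1 lower (7.24% and 6.68% of all genes). The median log2 fold change of the list was 0.08. mlt-10, a gene of molting with highest expression around each molt, was at 1.13 (standard error 0.24, adjusted p = 0.130), with a signal of 1414.5, 1039.5 and 890.9 in hs::ΔNTbar-1 animals, against 640.4, 466.5 and 400.4 in hs::control animals. All its hs::ΔNTbar-1 arrays lay above the control arrays, and replicate 1 was the highest of both groups. Another probe set of mlt-10 gave 0.90 and did not overlap either. fbn-1, of a fibrillin-like matrix protein, was lowest at -0.58 (adjusted p = 0.177), and another probe set of it gave 0.09. Whether the 2 strains were at the same point of the molting cycle was not tested.

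**Figure D4:**
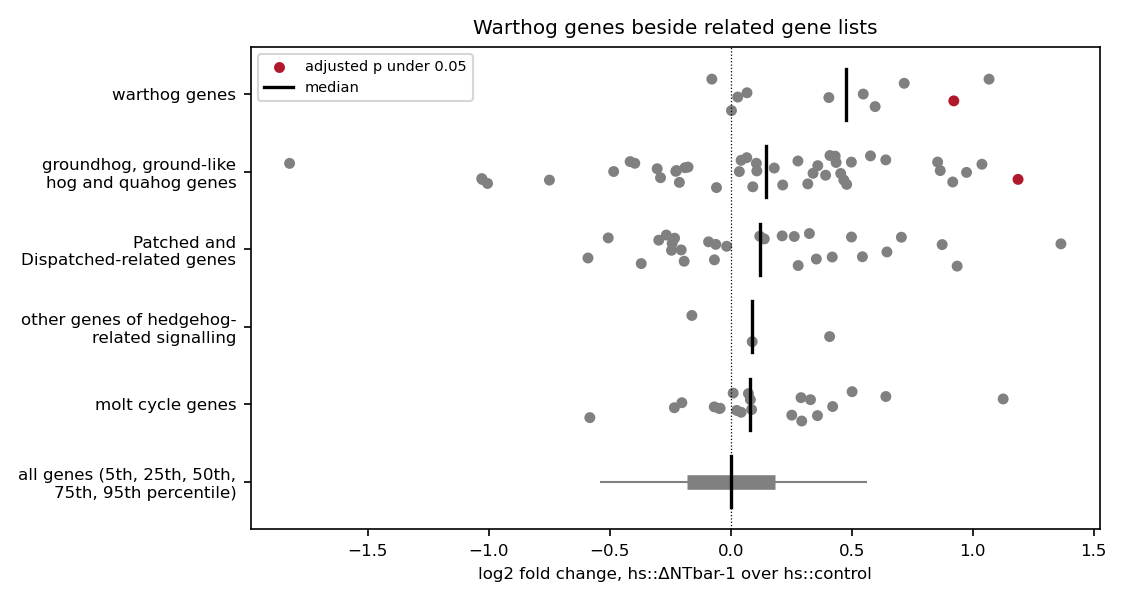
Log2 fold change of each gene, hs::ΔNTbar-1 over hs::control on the log2(signal + 16) scale (x axis), in the 10 warthog genes and 4 related gene lists (rows), each gene shown through its brightest probe set on average, with vertical scatter for legibility. Black bars are medians, red points passed the test (wrt-6 and hog-1), and the lowest row gives percentiles of all 17118 genes; the warthog median of 0.48 is the highest of the 5 lists, and this difference was not tested.

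Markers of the tissues that warthog genes are known from did not all differ in the same direction. None of the 7 measured of 8 hypodermal markers or the 4 measured of 6 seam markers passed limma's test. Of all genes, 0.444% were called higher and 0.286% lower. Without adjustment, 2 hypodermal markers were higher and 1 lower at a p under 0.05, and no seam marker in either direction (7.24% of all genes were higher and 6.68% lower). The summed signal of the hypodermal markers was 41580 to 45836 on the hs::ΔNTbar-1 arrays and 35184 to 38647 on the hs::control arrays, so it was higher in hs::ΔNTbar-1 animals without overlap, though their median log2 fold change was -0.02. Such a sum is set by its brightest probe sets, here those of the cuticle collagens sqt-3, with a mean of 31937 in hs::ΔNTbar-1, against 25933 in hs::control animals, and rol-6, with 4025 against 2685. The GATA factor elt-3 (1103 in hs::ΔNTbar-1, against 1632 in hs::control animals) and the junction protein gene ajm-1 (893 against 1129) were lower on every hs::ΔNTbar-1 array than on any hs::control array. sqt-3 and rol-6 were higher without overlap, so 2 hypodermal markers were apart in each direction. Over all genes the groups were apart at 11% in the higher direction and at 10.5% in the lower. The sum of the seam markers was 1345 to 1749 on the hs::ΔNTbar-1 arrays and 1414 to 1558 on the hs::control arrays. Of the seam markers, only elt-6 was without overlap, in the higher direction. The study counts elt-6 and egl-18, and ceh-22 of the pharyngeal list, among known Wnt-regulated genes. Whether these markers follow the amount of their tissue here was not tested. For 3 glial markers the sum was 1339 to 1408 on the hs::ΔNTbar-1 arrays and 1143 to 1194 on the hs::control arrays, but they did not go the same way, since vap-1 had a mean of 880 in hs::ΔNTbar-1, against 656 in hs::control animals, and kcc-3 had 192 against 255, also without overlap. At an unadjusted p under 0.05, 1 glial marker was higher and 1 lower. The groups were apart at 2 glial markers in the higher direction and at 1 in the lower. The 4 pharyngeal markers summed to 6328 to 7488 on the hs::ΔNTbar-1 arrays and 7759 to 9033 on the hs::control arrays, and the 5 neuronal ones to 14345 to 15324 on the hs::ΔNTbar-1 arrays and 15439 to 16450 on the hs::control arrays, so both sums were lower in hs::ΔNTbar-1 animals without overlap, as was 1 single marker in each list (tnc-2 and egl-3). The sums of the body wall muscle, intestine and germ line markers overlapped between the strains. Single markers without overlap were unc-89 of muscle, lower, and act-5 of intestine, higher. The part of these shifts in the values of the warthog genes was not tested.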

How the data were processed

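The authors hybridized whole-worm RNA of 3 hs::ΔNTbar-1 and 3 hs::control samples, described as biological replicates, and deposited signal intensity per probe set on a linear scale. The methods and the submitters' processing notes name MAS 5 and Partek, with versions not given in the sources used here. The values are not on a log2 scale and share a trimmed mean, so they were read as MAS 5 signals, not RMA. Group came from the genotype label and replicate number from the title. The 77 Affymetrix controls were left out, and log2(signal + 16) of 22548 probe sets was fitted with limma 3.58.1 in R 4.3.3 (lmFit, eBayes, two-sided, no block) and adjusted by Benjamini-Hochberg, with a threshold of 0.05. The fit was tested on simulated data. Of the probe sets, 20766 name 1 gene, 887 several and 895 none, and 20701 matched RefSeq (WBcel235) by identifier. In no pair of arrays were over 0.297% of values identical. The number of arrays limits the precision. Members and lists were chosen with earlier results of these data known. Named genes are all wrt genes, bar-1, members of the 4 related lists that passed or lay farthest in each direction, and hedgehog-related genes the study names. The assignment of members to Hint and non-Hint proteins is background knowledge. Alternatives were other scalings, filters, pseudocounts and variance models, the replicate block, the study's criteria on the log2(signal + 16) scale, and leaving out each array.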

Additional observations from a re-analysis of the deposited data

How the results depend on the processing

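The 152 calls over all probe sets became 635 without dim probe sets, 89 without probe set types that can bind several genes, 89 with a pseudocount of 1, 389 with one of 64, 833 under a trended, robust variance model, 282 by the study's criteria and 23 to 44 without 1 array. The single warthog call became 0 with centred arrays or a pseudocount of 1, 2 without dim probe sets or with a pseudocount of 64, 3 under the trended, robust variance model and 0 without any 1 array. The single call among groundhog, ground-like, hog and quahog genes became 7 without dim probe sets, 5 with a pseudocount of 64, 8 with the variance model, 3 by the criteria and 0 to 1 without 1 array. The 0 calls of the Patched list became 4, 2, 5 and 1 in those 4 settings, those of the molt cycle list 2, 1, 3 and 1, and the variance model called 1 of the 3 other hedgehog-related genes. The 2 filters count over smaller totals. Without dim probe sets, 13529 of 22548 probe sets remained, and 9 of the 11 warthog probe sets. The groundhog list kept 23 of 44 genes, the Patched list 24 of 29 and the molt cycle list 20 of 21. The filter on probe set types left 15837 probe sets, 5 of them warthog.

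With the replicate number as a block there were 2 calls over all probe sets, 0 among warthog genes and 0 in the groundhog list. Whether the numbers pair the samples is not settled by these values. Deviations of same-numbered arrays correlated at only 0.07, -0.02 and 0.06 over probe sets. Yet the median signal rose from replicate 1 to 3 in both groups (133.95, 140.9 and 144.75 in hs::ΔNTbar-1, 130.9, 136.3 and 142.75 in hs::control). Scaling turned wrt-7 to -0.018 (quantile) and -0.028 (centred) and wrt-5 to -0.0016 (centred), a pseudocount of 64 turned wrt-7 to -0.0031, and one of 1 turned 185567_at of wrt-9 to -0.12. Without 1 array the log2 fold change was -0.029 to 0.11 for wrt-5, -0.12 to 0.17 for wrt-7, -0.11 to 0.22 for wrt-8, -0.23 to 0.72 for 185567_at of wrt-9, -0.25 to 0.050 for wrt-10 and -0.24 to 0.0020 for tra-1. wrt-1, wrt-2, wrt-3, wrt-4, wrt-6 and 182172_at of wrt-9 kept a positive log2 fold change in every alternative run. Why the calls differ between settings was not tested. Fewer arrays widen the error by construction.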

Other observations

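Outside the warthog family, Hint domains are known in C. elegans from grd-1, grd-2, grd-11, hog-1 and qua-1. These genes were put together after their values were seen, so they carry no test as a group. Each of the 5 had all 3 hs::ΔNTbar-1 arrays above all 3 hs::control arrays, where 11% of all genes did. Of the 5 warthog genes with a Hint domain, only 2 did, and at wrt-1, wrt-7 and wrt-8 the groups overlapped. hog-1 passed limma's test. grd-2, whose mean signal was 224 ± 48.3 for hs::ΔNTbar-1 and 99.5 ± 4.88 for hs::control (SD, n = 3 arrays each), was at 2.05-fold (adjusted p = 0.0661 from limma). qua-1, which is needed for molting, was at 1.39-fold (adjusted p = 0.185), with mean signals of 2131 ± 180.4 for hs::ΔNTbar-1 and 1524 ± 122 for hs::control. grd-1 was at 1.33-fold (adjusted p = 0.363), and grd-11, at a very dim mean of 19 for hs::ΔNTbar-1 and 8.43 for hs::control, at 1.41-fold (adjusted p = 0.309).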
